A study of Mus musculus with 12 samples.

Results

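The genes described here encode the nuclear subunits of the mitochondrial respiratory chain and of ATP synthase. They were chosen by symbol: Ndufa, Ndufb, Ndufc, Ndufs and Ndufv genes (complex I), Sdha to Sdhd (complex II), Uqcr genes (complex III), Cox4 to Cox8 subunit genes (complex IV) and Atp5 genes (ATP synthase), leaving out pseudogenes whose symbol ends in -ps. The rule found 87 of the 22322 gene symbols in the deposited tables, and 81 of them were among the 10799 genes that reached a mean of 1 RPKM in at least 1 group and were tested. RPKM corrects a read number for transcript length and for library depth. The rule reads the symbol alone, and the row that stands for a symbol is its transcript of highest mean RPKM. By complex, 36 of the genes belong to complex I, 4 to complex II, 8 to complex III, 18 to complex IV and 15 to ATP synthase. The symbols also took in the complex I assembly factors Ndufaf1 to Ndufaf4 and 2 genes, Atp5s and Atp5sl, that are named after ATP synthase but are not among its structural subunits. Ndufa4, first named as a complex I subunit, was counted with complex IV, where its protein is now placed. The rule does not reach Cyc1, Cox4i1 and Usmg5, whose values are given with the other genes of the pathway. The subunits encoded by mitochondrial DNA were not analysed here.

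Complexes I and II feed electrons from NADH and succinate to ubiquinone, complex III passes them to cytochrome c, and complex IV gives them to oxygen. Complexes I, III and IV pump protons across the inner membrane, and ATP synthase uses the return of these protons to make ATP. In liver this supplies glucose production, urea synthesis and the handling of fatty acids, all of which follow the daily cycle of feeding and fasting. BMAL1, encoded by Arntl, pairs with CLOCK to drive the circadian clock by binding the E-box sequence CACGTG in promoters.

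The livers came from WT mice and from mice lacking Bmal1 in liver (KO), killed at circadian time (CT) 0 or 12, with 3 samples in each of the 4 groups. The labels give the strain as C57BL/6 and the age as 8 weeks, and the mice were moved from a light and dark cycle to constant darkness for the final days. The study's methods describe the WT mice as carrying floxed Bmal1 alleles, and the KO mice as the cross of that line with a liver-specific CRE. Whether the WT mice had CRE is not said, and an effect of CRE and an effect of losing Bmal1 cannot be told apart. The study's methods speak of 3 mice of each genotype and the labels list 3 samples per group, whereas the protocol in the labels speaks of a pair of mice per genotype and time. The 3 samples were taken as 3 mice, and if any shared a mouse the p-values measure a spread that is partly technical.

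The depth recovered from the steps of low RPKM values was 11460000 to 19020000 reads per sample. Arntl was at 15.7 to 16.3 RPKM in WT and 5.73 to 7.45 RPKM in KO at CT0, whereas at CT12 it was at 0.68 to 1.26 RPKM in WT and 3.59 to 4.37 RPKM in KO. The deposited value covers the whole transcript, so mRNA that lacks the deleted exon still counts toward it. The summed level of 6 hepatocyte markers was 36800 to 49237 RPKM in WT and 24715 to 33063 RPKM in KO, and of these 6 genes only Alb passed the test, lower in KO at both times. Alb alone took 5.44% to 7.74% of the reads in WT and 2.86% to 4.34% in KO, and since RPKM is scaled to all reads this share enters the level of every other gene. Of 5 erythroid markers 2, Hba-a2 and Hbb-b2, were called higher in KO at CT12, where the sum of the list was 107 to 189 RPKM in WT and 245 to 306 RPKM in KO. Alas2, on the same list, differed the other way, by -0.67 at CT0 (limma adjusted p = 0.053), -0.27 at CT12 and -0.47 over both times (limma adjusted p = 0.017). At the single times no called difference between genotypes was found for the markers of Kupffer cells, bile duct, endothelium or stellate cells, and no lymphocyte marker reached the filter. In bulk tissue, fewer cells of a type and less RNA per cell cannot be told apart. The part of these shifts in the results below was not tested.

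Most members were abundant and stood at nearly the same level in the 4 groups. Together the 87 genes summed to 8780 to 11248 RPKM per library. Complex I genes summed to 2651 ± 49.1 RPKM in WT and 2847 ± 269 RPKM in KO at CT0, and to 2640 ± 207 RPKM in WT and 2655 ± 212 RPKM in KO at CT12 (SD, n = 3). ATP synthase genes summed to 3020 ± 31.5 RPKM in WT and 3233 ± 292 RPKM in KO at CT0, and to 3037 ± 243 RPKM in WT and 2978 ± 215 RPKM in KO at CT12 (SD, n = 3). The KO sum over the WT sum at CT0 was 1.09 for complex II, 1.02 for complex III and 1.07 for complex IV, and at CT12 these ratios were 0.957, 0.943 and 0.982. In each of the 5 complexes the highest sum of the 12 libraries was that of KO CT0 replicate 1. Without that library the CT0 ratios were 1.02 for complex I, 1.02 for complex II, 0.962 for complex III, 1.01 for complex IV and 1.02 for ATP synthase.

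**Figure D1:**
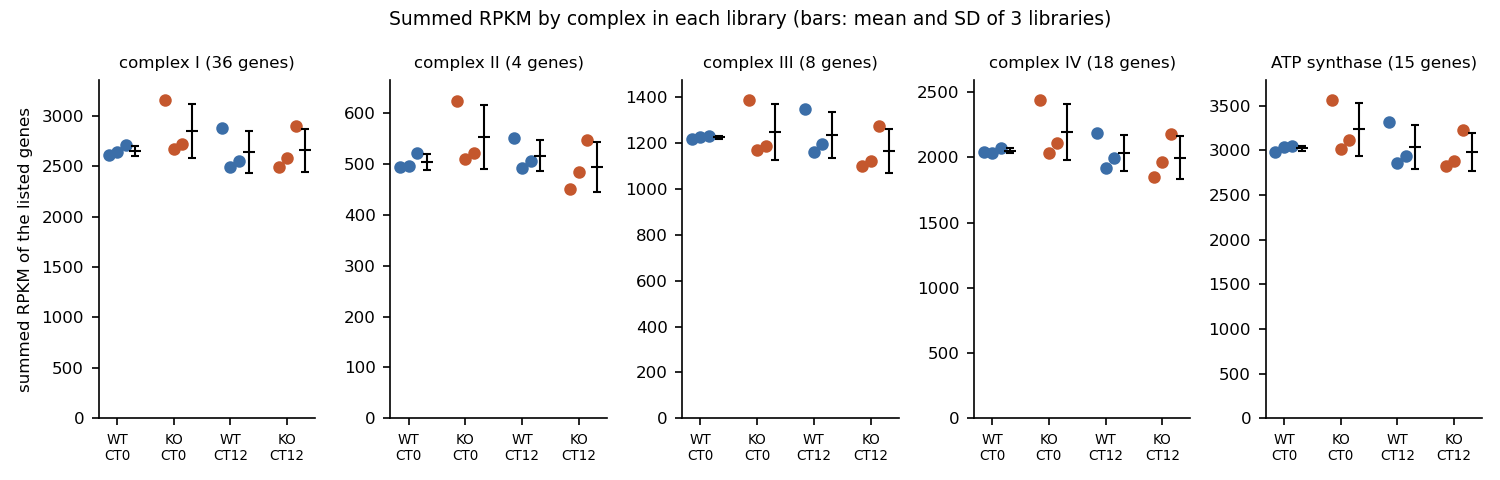
Summed level in RPKM of the genes of each complex, with 1 point per library (blue WT, orange KO) and the mean and SD of each group of 3 beside the points. At each time WT and KO overlap in every complex, and KO CT0 replicate 1 is the highest point in each of the 5 complexes.

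The genes of one complex did not have like mRNA levels. The highest member of complex I was Ndufa3, an accessory subunit, with a mean of 177 RPKM over the 12 libraries, against a median gene of 70.4 RPKM in that complex. In complex III it was Uqcrh, the hinge subunit that contacts cytochrome c1, with 256 RPKM, and in complex IV Ndufa4 with 415 RPKM. The highest of all was Atp5b, the catalytic beta subunit of ATP synthase, at 466, 493 and 494 RPKM in WT CT0, 568, 481 and 498 in KO CT0, 570, 458 and 484 in WT CT12 and 465, 513 and 519 in KO CT12. These 4 groups overlapped. The KO minus WT difference of Atp5b was 0.09 at CT0 and -0.01 at CT12 on the log2(RPKM + 1) scale, which is the scale of every difference given here.

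At CT0 no member passed the test between KO and WT. Of the 81 members 0 had an adjusted p-value under 0.05 (limma, Benjamini-Hochberg over 10799 genes), against 1.86% of all genes tested. At an unadjusted p-value under 0.05 there were 10 members, or 12.3%, against 14.2% of all genes, and the same model without moderation gave 7. The 95% interval of the difference lay within 1.5-fold in either direction for 75 members, or 92.6%, against 74.2% of all genes. The differences leaned upward, with 65 of the 81 members above 0 (80.2%, against 52.2% of all genes) and a member median of 0.099 against 0.011 over all genes. The lean was not particular to the members. Of 76 mitochondrial ribosomal protein genes 59 were above 0 (median 0.092), and of 24 other assembly factors 21 (0.115). Of 17 electron carrier genes 15 were above 0 (median 0.161), and of 14 citric acid cycle genes 11 (0.088). Of 14 genes of mitochondrial transcription and biogenesis only 6 were above 0 (median -0.072). In 20 members, or 24.7%, all 3 KO values lay above all 3 WT values, against 11.3% of all genes, and in 2 members, Ndufa1 and Uqcrh, they all lay below, against 9.27% of all genes. The members share libraries, so these counts do not come from 81 independent observations.

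The lean of the members at CT0 rested on 1 library. In KO CT0 replicate 1, the median member stood 0.211 above its mean over the 12 libraries, while the median of all genes stood 0.054 above. In this library 78 of the 81 members were above the mean of their own group, against 7 in KO CT0 replicate 2 and 10 in KO CT0 replicate 3. Deviations from a group mean cancel within the group, so the low counts follow in part from the high one. The median of all genes deviated from its group mean by 0.034, -0.015 and -0.019 in KO CT0 replicates 1, 2 and 3. Without KO CT0 replicate 1 the member median at CT0 was 0.016, against -0.008 over all genes, with 43 members above 0 and 38 below. The library also had the highest Kupffer cell and macrophage marker sum, 123 RPKM against 52.7 to 113 RPKM in the WT libraries, whose part was not tested. Members also moved together inside other groups: 73 were above the group mean in WT CT12 replicate 1 and 74 in KO CT12 replicate 3, whereas 13 were in KO CT12 replicate 1. Taking away the median member of each library lowered the median within-group SD of the members from 0.126 to 0.087. Removing a set's own median tends to lower its spread, so this drop alone does not show that members moved together. Taking the same member median from all genes raised theirs from 0.163 to 0.185. All genes were not compared after removal of their own median.

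**Figure D2:**
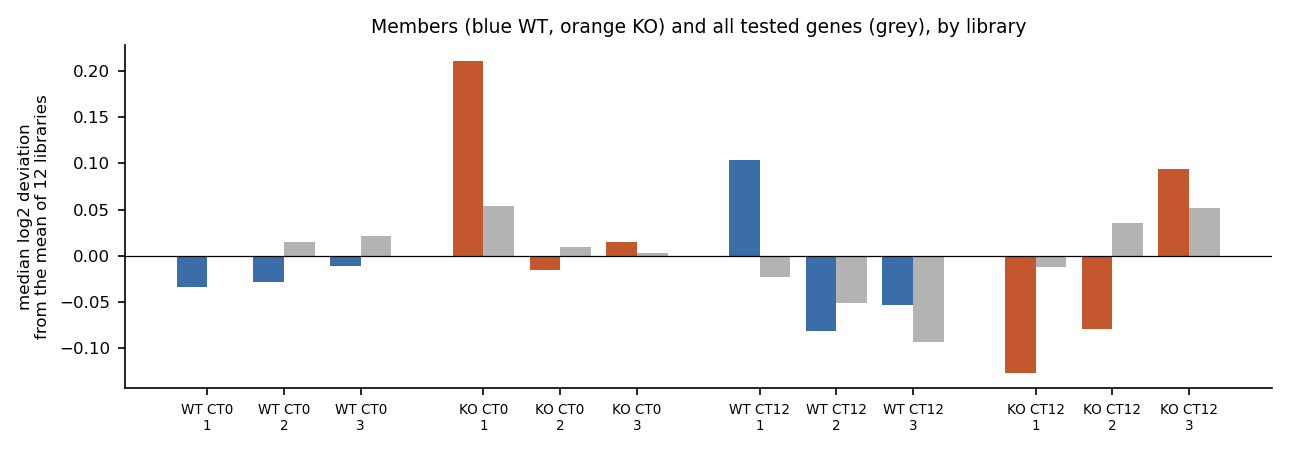
Bars give the median deviation, on the log2(RPKM + 1) scale, of the 81 members (blue WT, orange KO) and of all genes tested (grey) in each of the 12 libraries from the mean over all libraries. The members reach 0.211 in KO CT0 replicate 1 and -0.127 in KO CT12 replicate 1, while all genes stay between -0.094 and 0.054.

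At CT12 a single member, Ndufv3, rose in KO. This was 1 of 81 members, against 10.5% of all genes called in either direction and 6.97% called higher. At an unadjusted p-value under 0.05 there were 6 members against 24.9% of all genes, and the interval lay within 1.5-fold for 74 members against 67.3% of all genes. At this time 35 members were above 0, whereas 65.1% of all genes were, and the member median was -0.032 against 0.080 over all genes. The KO values lay wholly above WT in 4 members, Ndufv3, Ndufs4, Ndufa6 and Ndufaf2, against 20.4% of all genes, and wholly below in 5 members, Sdhd, Ndufb8, Atp5j2, Uqcr11 and Atp5sl, against 8.39%. These counts depended on the scaling. Scaling the libraries by the median ratio, which lowered the CT12 difference of the median gene to 0.006, placed the member median at -0.119 with 67 of 81 members below 0, and quantile normalization placed it at -0.053 with 57 below 0.

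**Figure D3:**
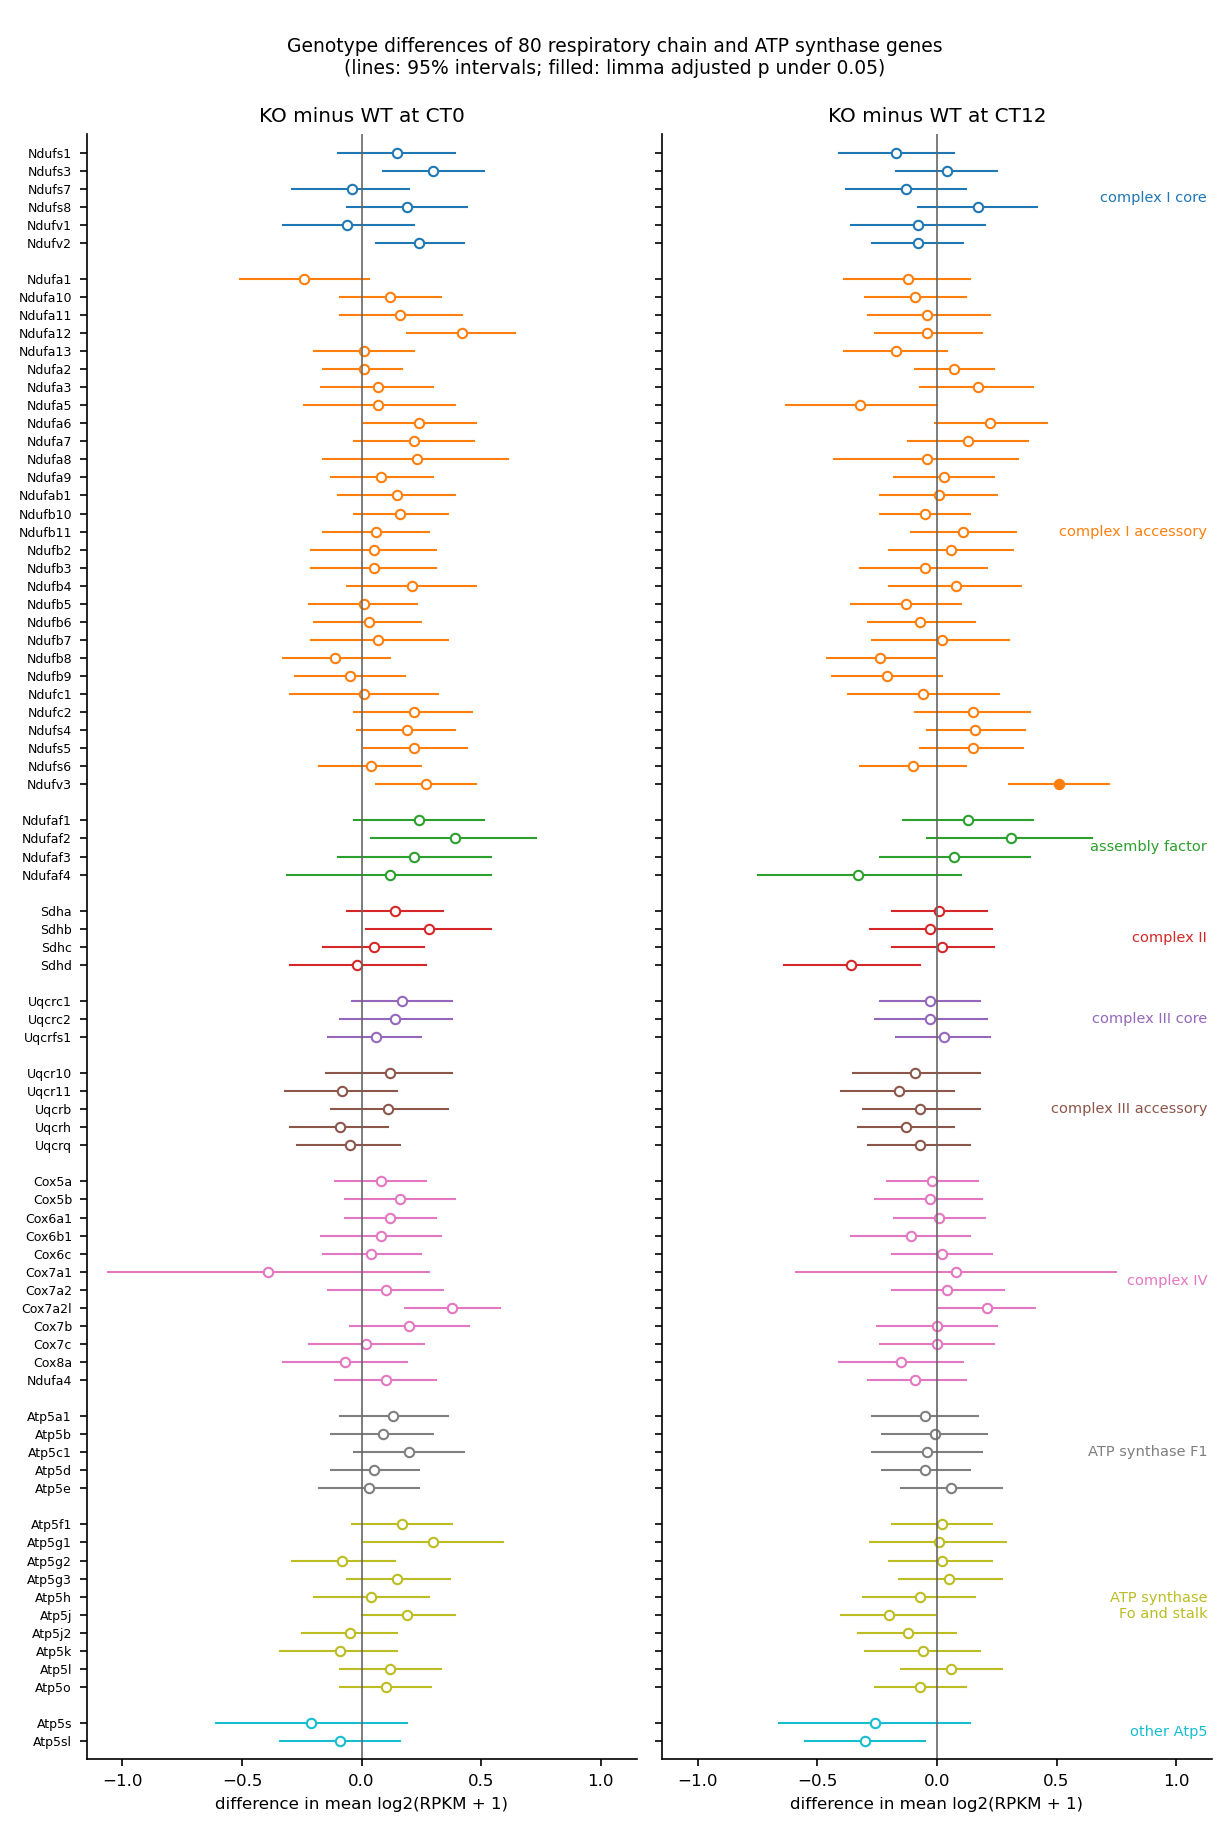
KO minus WT difference in log2(RPKM + 1) of 80 of the 81 tested members at CT0 and CT12, grouped by complex, with 1 point per gene, its 95% interval as a line, and a filled point where the limma adjusted p-value was under 0.05. At CT0 the members run from -0.389 (Cox7a1) to 0.416 (Ndufa12), and at CT12 from -0.357 (Sdhd) to 0.512 (Ndufv3).

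Ndufv3 encodes an accessory subunit of the part of complex I that binds NADH, and is known in a short and a long form that differ by 1 large exon. The gene lies on the plus strand at chr17:31657060-31668266 in NCBIM37 (mm9), and no other annotated gene overlaps it. Its short transcript of 483 bases joins exon 2 directly to the last exon, and its long transcript of 1575 bases holds a coding exon of 1092 bases in between, at chr17:31664255-31665346. Both transcripts have a row of their own in the tables, and the reference sequences around the junction that tells them apart are shown because the result at CT12 was read on both. The last 30 bases of exon 2 are in lower case and the first 30 bases of the next exon are in capitals.
Ndufv3 short: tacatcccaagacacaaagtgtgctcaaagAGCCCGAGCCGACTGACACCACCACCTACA
Ndufv3 long: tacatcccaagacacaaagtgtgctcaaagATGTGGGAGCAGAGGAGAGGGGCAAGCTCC

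The row of the short Ndufv3 transcript, the higher of the pair, was at 71.8, 68.5 and 57.6 RPKM in WT CT12 and at 94.3, 95.4 and 92.6 RPKM in KO CT12. At CT0 it was at 86.7, 74.8 and 81.6 RPKM in WT and at 105, 92.3 and 96.6 RPKM in KO. All KO values lay above all WT values at both times, and the lowest group was WT CT12. The KO mean was 1.43 times the WT mean at CT12, a log2 difference of 0.51 (SE 0.10, 95% interval 0.30 to 0.72, limma adjusted p = 0.0048). At CT0 the ratio was 1.21 and the log2 difference 0.27 (SE 0.10, limma adjusted p = 0.20), and the effects at both times were not shown to differ (interaction 0.24, limma adjusted p = 0.52). The CT12 difference passed the threshold in each of 23 alternative settings, where it ranged from 0.41 to 0.58 with a limma adjusted p of 0.002 to 0.021. It rested on 373 to 791 reads per library.

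The long Ndufv3 transcript was at 32.2, 29.4 and 24.6 RPKM in WT CT12 and at 43.9, 42.5 and 42.3 RPKM in KO CT12, again with no overlap. At CT0 it was at 35.5, 32.1 and 34.8 RPKM in WT and 46.4, 43 and 41.2 RPKM in KO. The KO minus WT difference of this row was 0.34 at CT0 and 0.57 at CT12. The ratio of the long to the short row stayed between 0.409 and 0.466 in the 12 libraries, with group means of 0.422 in WT CT0, 0.444 in KO CT0, 0.435 in WT CT12 and 0.456 in KO CT12. How reads from the shared exons were divided between the transcripts is not stated, so the rows are not independent measurements of Ndufv3. Every exon of the short transcript is also in the long one, so the short row can hold reads of both forms. Which form was more abundant, and whether their proportion changed, cannot be read from these rows.

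Averaged over both times, 2 of the 81 members differed between genotypes, both higher in KO, against 11.5% of all genes called and 7.44% called higher. At an unadjusted p-value under 0.05 there were 14 members against 25.4% of all genes. Besides Ndufv3 (0.39, SE 0.07, limma adjusted p = 0.0027) this was Cox7a2l, counted here with complex IV. Cox7a2l lies on the minus strand at chr17:83901259-83913673 (NCBIM37). It was at 60.2, 58.4 and 58.3 RPKM in WT CT0 and 68.8, 83.5 and 79.5 RPKM in KO CT0, with no overlap. At CT12 it was at 73.8, 70.2 and 65.3 RPKM in WT and 82.6, 73.5 and 87.0 RPKM in KO, where the lowest KO value lay just under the highest WT value. Its mean difference over both times was 0.30 (SE 0.07, limma adjusted p = 0.012). The call passed the threshold in 21 of 22 alternative settings and was lost with the replicate block and GC and length trends removed together (0.23, limma adjusted p = 0.072). At the single times it was 0.38 at CT0 (SE 0.09, limma adjusted p = 0.067) and 0.21 at CT12 (SE 0.09, limma adjusted p = 0.18). Without KO CT0 replicate 1 the CT0 difference of Cox7a2l was 0.46 with a limma adjusted p of 0.042. The contrast over both times was added after the data had been seen.

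**Figure D4:**
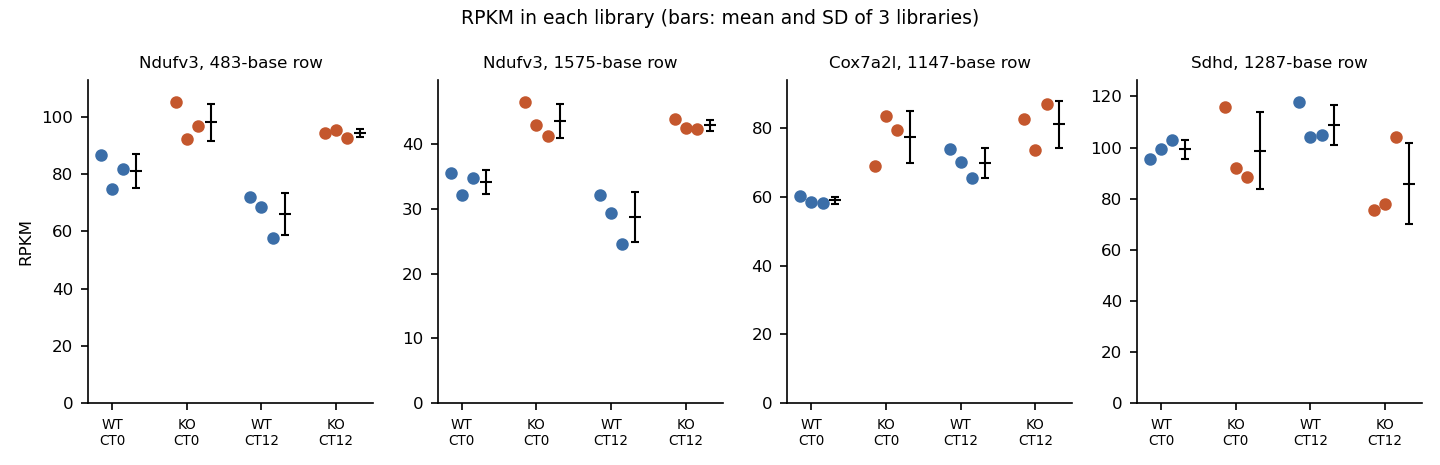
Level in RPKM of both Ndufv3 transcripts, Cox7a2l and Sdhd, with 1 point per library (blue WT, orange KO) at CT0 and CT12 and the mean and SD of each group of 3 beside the points. The KO points of the short Ndufv3 transcript at CT12, 92.6 to 95.4 RPKM, lie above its WT points, 57.6 to 71.8 RPKM.

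In complex I, the core subunits carry the electron path and the accessory subunits surround them. Of the 36 genes 31 were above 0 at CT0 and 17 at CT12, with medians of 0.10 and -0.036, and 34 had an interval within 1.5-fold at each time. Of all genes, 52.2% were above 0 at CT0 and 65.1% at CT12, and 74.2% and 67.3% had such an interval. These shares also stand against the counts of the other complexes below. The lean at CT0 rested on KO CT0 replicate 1, and the counts per complex were not repeated without that library. Ndufa12, an accessory subunit next to the path of the electrons, had the largest difference at CT0. It was at 52.4, 48.5 and 53.1 RPKM in WT CT0 and at 78.1, 59.7 and 69.7 RPKM in KO CT0, without overlap, and at 64.7, 54.5 and 56.4 RPKM in WT CT12 and 55.9, 55.8 and 59.1 RPKM in KO CT12, with overlap. The Ndufa12 difference was 0.42 at CT0 (SE 0.10, 95% interval 0.19 to 0.64, limma adjusted p = 0.070) and -0.04 at CT12. At CT0 Ndufa12 passed the threshold in 3 of 21 alternative settings, where its limma adjusted p ranged from 0.028 to 0.24. These were quantile normalization (limma adjusted p = 0.028), median-ratio scaling (limma adjusted p = 0.045) and leaving out KO CT0 replicate 2 (limma adjusted p = 0.029). The length of its chosen transcript was not known, so Ndufa12 was absent from the settings that remove GC and length trends.

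Among the core subunits, Ndufs3, on the minus strand at chr2:90734793-90744984 (NCBIM37), was at 45.5, 44.3 and 53.9 RPKM in WT CT0 and at 60.3, 61.3 and 55.5 RPKM in KO CT0. The values did not overlap, and the difference was 0.30 (SE 0.10, limma adjusted p = 0.16). Ndufs3 overlaps Kbtbd4 on the opposite strand, and the library kit does not mark strand, so reads of the 2 genes cannot be told apart where they overlap. Smaller values were found for other core subunits, such as 0.15 for Ndufs1 and 0.19 for Ndufs8 at CT0, and -0.17 and 0.17 for them at CT12. Ndufv2, which carries an iron-sulfur cluster, was at 50.3, 48.2 and 47.0 RPKM in WT CT0 and 62.6, 54.1 and 56.5 RPKM in KO CT0. At CT12 Ndufv2 was at 61.2, 51.6 and 54.1 RPKM in WT and 53.2, 50.1 and 53.9 RPKM in KO. Its KO values lay above WT at CT0 and overlapped them at CT12, and the interaction of -0.33 (SE 0.12) did not pass the test (limma adjusted p = 0.28).

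The 29 accessory subunits of complex I had quartiles of 0.025 and 0.209 at CT0 and of -0.089 and 0.111 at CT12. The lowest were Ndufa1 at CT0 (-0.24) and Ndufa5 at CT12 (-0.315), and the highest were Ndufa12 and Ndufv3, given above. Ndufa6 was at 138, 139 and 164 RPKM in WT CT0 and 193, 162 and 167 RPKM in KO CT0, then at 142, 135 and 129 RPKM in WT CT12 and 154, 145 and 179 RPKM in KO CT12. The groups overlapped at CT0 and were separate at CT12, with differences of 0.24 and 0.22 (limma adjusted p = 0.32 and 0.22). Ndufb8, at 114, 95.3 and 110 RPKM in WT CT12 and 86.7, 92.1 and 90.9 RPKM in KO CT12, differed by -0.24 (SE 0.10, limma adjusted p = 0.17). The assembly factors, which help build complex I without staying in it, were lower in level, with means of 6.56 RPKM for Ndufaf3 to 18.8 RPKM for Ndufaf4. All 4 were above 0 at CT0, from 0.12 for Ndufaf4 to 0.39 for Ndufaf2, and at CT12 they ran from -0.33 for Ndufaf4 to 0.31 for Ndufaf2. None of these passed the test.

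Complex II, succinate dehydrogenase, is also an enzyme of the citric acid cycle. Its catalytic flavoprotein Sdha was at 140, 148 and 150 RPKM in WT CT0, 176, 162 and 146 in KO CT0, 160, 143 and 152 in WT CT12 and 140, 156 and 163 in KO CT12. The iron-sulfur subunit Sdhb was at 120, 119 and 126 RPKM in WT CT0, 171, 132 and 141 in KO CT0, 147, 118 and 123 in WT CT12 and 116, 122 and 142 in KO CT12. Sdha overlapped between genotypes at both times and Sdhb at CT12 only, with a CT0 difference of 0.28 for Sdhb (limma adjusted p = 0.30). Sdhd, one of the pair of membrane anchors, lies on the minus strand at chr9:50404443-50411954 (NCBIM37). It was at 118, 104 and 105 RPKM in WT CT12 and at 75.5, 78.1 and 104 RPKM in KO CT12. The highest KO value of Sdhd was just under the lowest WT value, and the difference was -0.36 (SE 0.13, 95% interval -0.64 to -0.07, limma adjusted p = 0.11). At CT0 Sdhd was at 95.5, 99.6 and 103 RPKM in WT and 116, 92 and 88.3 RPKM in KO, with overlap. Sdhd passed the threshold at CT12 in 5 of 23 alternative settings, where its limma adjusted p ranged from 0.021 to 0.28. The other anchor, Sdhc, differed by 0.05 at CT0 and 0.02 at CT12.

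In complex III the differences ran from -0.094 to 0.166 at CT0 and from -0.164 to 0.027 at CT12. All 8 of its genes had an interval within 1.5-fold at each time, and 5 were above 0 at CT0 and 1 at CT12, with medians of 0.085 and -0.068. The core protein Uqcrc1 differed by 0.17 at CT0 and -0.03 at CT12, and Uqcrc2 by 0.14 and -0.03. Uqcrh was at 264, 276 and 262 RPKM in WT CT0, 256, 249 and 247 in KO CT0, 284, 244 and 265 in WT CT12 and 221, 232 and 275 in KO CT12. The KO values of Uqcrh lay below WT at CT0, by a log2 difference of only -0.09, and overlapped at CT12.

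In complex IV the liver and ubiquitous forms of the subunits carried nearly all of the signal. Cox6a1 had a mean of 170 RPKM, Cox6b1 of 260 RPKM, Cox7a2 of 148 RPKM and Cox8a of 114 RPKM, each with more than 1 form in the genome. Cox7a1, the heart and muscle form, had a mean of 1.86 RPKM (0.579 to 2.95), resting on 3 to 18 reads per library, and was the 1 tested member under 1 RPKM in some library. The 6 members that did not pass the filter were all complex IV genes. Cox6a2, a heart and muscle form, reached at most 0.427 RPKM and Cox6b2, a testis form, at most 0.477 RPKM. Cox8b was found in WT CT12 replicate 3 only, at 0.206 RPKM, Cox8c in KO CT0 replicate 1 only, at 0.141 RPKM, and Cox7b2 was at 0 in every library. Ndufa4l2, a relative of Ndufa4 known to be induced by hypoxia, was at 0.194, 0.497 and 0.388 RPKM in WT CT12 and at 0.578, 0.787 and 0.686 RPKM in KO CT12, too low to be tested. Of 6 muscle and brown fat markers 4, Myh6, Myh7, Mb and Ucp1, were at 0 in every library, and Ckm and Acta1 were each above 0 in 1 library, at 0.0481 and 0.0826 RPKM.

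**Figure D5:**
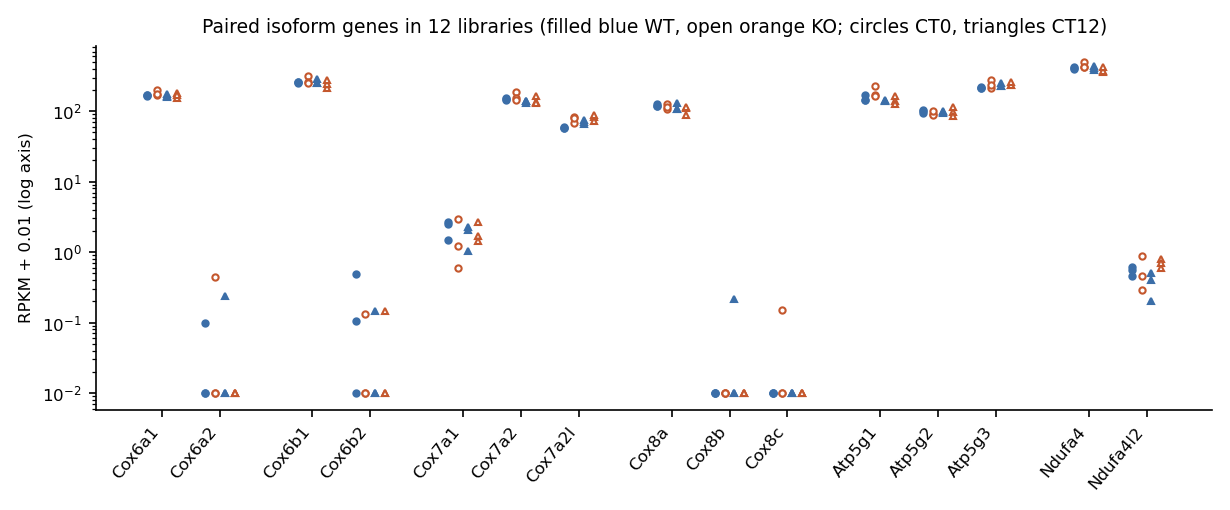
Level of subunit genes with more than 1 form, as RPKM + 0.01 on a log axis, with 1 point per library (filled blue WT, open orange KO, circles CT0, triangles CT12), so that 0 RPKM lies at 0.01. Cox6a1, Cox6b1, Cox7a2 and Cox8a have means of 114 to 260 RPKM, while their muscle and testis forms stay at or under 2.95 RPKM.

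Of the 12 tested complex IV genes 10 were above 0 at CT0 and 6 at CT12, with medians of 0.089 and 0.002. The forms that carry the signal did not pass the test at either time, with differences at CT0 of 0.12 for Cox6a1, 0.08 for Cox6b1, 0.10 for Cox7a2 and -0.07 for Cox8a. At CT12 the same 4 genes differed by 0.01, -0.11, 0.04 and -0.15. Cox5b, a nuclear subunit that binds zinc, differed by 0.16 and -0.03, and Cox6c by 0.04 and 0.02. An interval within 1.5-fold was found for 11 of the 12 genes at each time.

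ATP synthase consists of a catalytic F1 head and a membrane Fo part with its stalks. Of its 15 genes 12 were above 0 at CT0 and 6 at CT12, with medians of 0.096 and -0.04. The 5 F1 genes were all above 0 at CT0, from 0.027 for Atp5e to 0.198 for Atp5c1, and 4 of them were below 0 at CT12. The 10 Fo and stalk genes were mixed, with 7 above 0 at CT0 and 5 at CT12. Atp5j, coupling factor 6 of the stalk, lies on the minus strand at chr16:84828111-84834484 (NCBIM37). It was at 123, 122 and 114 RPKM in WT CT0 and 143, 132 and 134 RPKM in KO CT0, and at 138, 136 and 141 RPKM in WT CT12 and 109, 116 and 137 RPKM in KO CT12. Its KO values lay above WT at CT0, whereas at CT12 the highest KO value fell inside the WT range. The Atp5j difference was 0.19 at CT0 and -0.20 at CT12, and the interaction of -0.40 (SE 0.13) did not pass the test (limma adjusted p = 0.20).

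The ring of Fo is built from 1 mature protein that 3 genes encode. Atp5g3 had a mean of 234 RPKM, Atp5g1 of 156 RPKM and Atp5g2 of 97.3 RPKM. Atp5g1 was at 168, 144 and 143 RPKM in WT CT0 and 231, 170 and 166 RPKM in KO CT0, with overlap, a difference of 0.30 (limma adjusted p = 0.32). At CT12 the difference of Atp5g1 was 0.01, and Atp5g2 differed by -0.08 at CT0 and by 0.02 at CT12, and Atp5g3 by 0.15 and 0.05. Atp5sl, now known as a factor in building the membrane arm of complex I, was at 10.5, 10.8 and 10.7 RPKM in WT CT12 and at 9.42, 7.37 and 8.64 RPKM in KO CT12. These groups did not overlap, and the difference was -0.30 (SE 0.11, limma adjusted p = 0.12).

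The genotype effect was not shown to depend on time for any member. The interaction, the KO minus WT difference at CT12 less that at CT0, was called for 0 of 81 members against 1.49% of all genes (limma). At an unadjusted p-value under 0.05 there were 3 members, Atp5j, Ndufa12 and Ndufv2, against 12.3% of all genes, and the unmoderated model also gave 3. All 3 had differences above 0 at CT0 and below 0 at CT12. The interaction was below 0 in 71 members, against 38.6% of all genes, with a median of -0.101 against 0.067 over all genes. Without KO CT0 replicate 1 the median was -0.034 over the members and 0.083 over all genes, with 52 of 81 members below 0. The gap between members and all genes was then -0.117, against -0.168 with every library. The interval of the interaction lay within 1.5-fold for 68 members against 46.9% of all genes.

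Between CT0 and CT12 the median member differed by 0.017 in WT, against -0.068 over all genes. This median was -0.049, with 57 of 81 members below 0, without WT CT12 replicate 1, and 0.081, with 60 above 0, under median-ratio scaling. Over all genes the medians were then -0.084 and -0.016. Of the 81 members 1 was called, lower at CT12, against 11.6% of all genes called and 7.88% called lower. This was Ndufa2, an accessory subunit of complex I, at 73, 67.2 and 70.4 RPKM in WT CT0 and 61.3, 56.1 and 58.5 RPKM in WT CT12. The groups did not overlap, and Ndufa2 fell by 0.26 on the log2 scale (SE 0.08, limma adjusted p = 0.048), a call that passed the threshold in 6 of 23 alternative settings. Ndufa2 overlaps Tmco6 on the opposite strand. With the replicate number as a block Ndufa2 was not called (limma adjusted p = 0.063), and the assembly factor Ndufaf4 was called in its place, higher at CT12 (0.59, limma adjusted p = 0.029). Without the block Ndufaf4 had a limma adjusted p of 0.072. At an unadjusted p-value under 0.05 there were 7 members against 26.9% of all genes. In KO the change with time was called for 0 members against 2.43% of all genes (limma), with 5 at an unadjusted p-value under 0.05 against 19.9% of all genes and 7 in the unmoderated model. The median change in KO was -0.115, with 71 members below 0 against 50.3% of all genes, and it was -0.039 without KO CT0 replicate 1. Over all genes these medians were -0.002 and 0.015. The comparisons between genotypes and between times share libraries and are not independent.

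Of the genes outside the symbol rule, Cox4i1, Cyc1, Usmg5, Atpif1 and Cycs were not called at either time. Cox4i1, the largest nuclear subunit of complex IV, had a mean of 316 RPKM and differed by -0.10 at CT0 and -0.06 at CT12. Cyc1, cytochrome c1 of complex III, had a mean of 81.5 RPKM with differences of 0.16 and -0.11. The respective values were 0.23 and -0.08 for Usmg5, a small ATP synthase subunit, 0.24 and -0.03 for Atpif1, the inhibitor of ATP hydrolysis, and 0.06 and -0.25 for Cycs, cytochrome c itself.

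Some genes for assembly and for coenzyme Q were called in KO at CT12, where 6.97% of all genes were called higher and 3.49% lower, against 1.02% and 0.843% at CT0. Of 24 tested assembly factors other than the Ndufaf genes, 0 were called at CT0 and 3 at CT12, all higher. Sco2, a copper chaperone of complex IV, was at 9.93, 7.39 and 8.55 RPKM in WT CT12 and 18.7, 21.4 and 21.7 RPKM in KO CT12, a difference of 1.17 (limma adjusted p = 0.00019). At CT0 Sco2 was at 22.8, 26.5 and 33.9 RPKM in WT and 29.9, 27.3 and 30.3 RPKM in KO, and its interaction was 1.09 (limma adjusted p = 0.018). Sco2 overlaps Ncaph2 on the opposite strand. The others were Cox18, which inserts a mitochondrially encoded subunit into the membrane (0.51, limma adjusted p = 0.017), and Cox19, a copper-binding factor (0.50, limma adjusted p = 0.032), which passed the threshold in 19 and 12 of 23 alternative settings.

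Of 17 tested genes of the mobile electron carriers, 1 was called higher at CT0, and 1 higher and 1 lower at CT12. Adck3, needed for coenzyme Q synthesis, was at 177, 196 and 245 RPKM in WT CT0, 405, 328 and 311 in KO CT0, 56.1, 42.9 and 58 in WT CT12 and 167, 156 and 216 in KO CT12. Adck3 rose by 0.76 at CT0 (limma adjusted p = 0.043, past the threshold in 12 of 23 alternative settings) and by 1.76 at CT12 (limma adjusted p = 4e-05). Coq10b, a coenzyme Q binding protein, was at 28.3, 29.6 and 28.8 RPKM in WT CT12 and 11.2, 10.4 and 11.2 RPKM in KO CT12. That is a difference of -1.32 (limma adjusted p = 0.0035).

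In the citric acid cycle list, 1 gene was called at CT0, lower in KO. Idh2, mitochondrial isocitrate dehydrogenase, differed by -0.55 at CT0 (limma adjusted p = 0.045) and -0.47 at CT12 (limma adjusted p = 0.030). These calls passed the threshold in 7 and 16 of 23 alternative settings. Cs, citrate synthase, differed by 0.64 at CT12 (limma adjusted p = 0.048), and this call passed the threshold in 6 of 23 alternative settings. Of 76 mitochondrial ribosomal protein genes 0 were called at CT0 and 1 at CT12, Mrpl18 (0.38, limma adjusted p = 0.019). Of 14 genes of mitochondrial transcription and biogenesis, 0 were called at either time. Among these, Ppargc1a, the coactivator of mitochondrial biogenesis, differed by 0.19 at CT0 and 0.12 at CT12, Ppargc1b by -0.06 and -0.38, Esrra by 0.28 and -0.22, Gabpa by -0.09 and -0.25, and Tfam, which packages mitochondrial DNA, by 0.02 and -0.07. Nrf1, a factor that binds promoters of respiratory chain genes, differed by -0.39 at CT0 (limma adjusted p = 0.067) and -0.02 at CT12.

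The promoters of the members were searched for the letters of 6 motifs. RefSeq (GRCm38.p6) promoter windows, from 250 bases before to 50 bases after the start, were matched for 74 members in 80 windows, and 32851 windows were searched in all, on both strands. The NRF1 letters GCGCANGCG were present in 22 member windows (27.5%) against 6.25% of all windows, and the YY1 letters AAGATGGC in 12 (15%) against 2.75%. The ETS letters CCGGAAGT were present in 6.25% against 3.89%, the ERR letters TCAAGGTCA in 2.5% against 0.423% and the D-box TTATGTAA in 1.25% against 0.938%. The E-box CACGTG, to which BMAL1 and CLOCK bind, was present in 9 member windows (11.2%) against 7.15%, belonging to 7 genes. These were Atp5f1, Atp5g1, Atp5g3, Atp5l, Atp5sl, Ndufa7 and Ndufv1. A match is a description of the letters and not a bound site.

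The E-box stretches of 4 of those 7 genes are printed with 25 bases on either side, since loss of BMAL1 is the perturbation and these letters are its known target. They lie in GRCm38.p6 at chr11:96075645-96075700 on the minus strand for Atp5g1, chr9:44920859-44920914 on the minus strand for Atp5l, chr17:33824475-33824530 on the plus strand for Ndufa7 and chr19:4012894-4012949 on the minus strand for Ndufv1. The E-box is in capitals and the gene's strand is shown.
Atp5g1: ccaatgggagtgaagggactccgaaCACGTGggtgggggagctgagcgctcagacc
Atp5l: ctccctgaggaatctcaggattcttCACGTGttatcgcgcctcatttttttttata
Ndufa7: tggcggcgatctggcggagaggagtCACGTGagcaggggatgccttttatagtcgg
Ndufv1: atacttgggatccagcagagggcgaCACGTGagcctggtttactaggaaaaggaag

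None of the 7 genes with an E-box was called in KO at either time (0 by limma), against 1.86% of all genes at CT0 and 10.5% at CT12. With so few genes, 0 calls cannot be told apart from these shares. At an unadjusted p-value under 0.05 there was 1 of the 7 at each time, against 14.2% and 24.9% of all genes. The median difference of the 7 genes was 0.152 at CT0, from -0.09 to 0.30, and 0.019 at CT12, from -0.30 to 0.13. For the 21 genes with the NRF1 letters the medians were 0.119 and -0.040, again with 0 called by limma. At an unadjusted p-value under 0.05 there were 2 of these 21 at CT0 and 1 at CT12, against 14.2% and 24.9% of all genes. For the 11 genes with the YY1 letters the medians were 0.036 and -0.10, with 0 called by limma. Of these 11 genes, 0 at CT0 and 3 at CT12 had an unadjusted p-value under 0.05, against 14.2% and 24.9% of all genes. Neither Ndufv3 nor Cox7a2l is among the genes with an E-box in the window, but a window was not matched for every member. An E-box outside the window was not searched for, and binding of BMAL1 was not tested.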

How the data were processed

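Liver RNA of 12 mouse samples had been made into TruSeq libraries. The authors deposited RPKM values per Ensembl transcript, 1 table of 46585 rows per sample, without pooling. Their processing notes name TopHat2, bedtools 2.19.1 and mm9, and the counting of reads shared by transcripts is not given in the sources used here. Groups came from the sample titles.

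Each symbol was represented by its transcript of highest mean RPKM, so a short transcript could stand for a gene (30 of 87 members). Values were taken as log2(RPKM + 1), which understates changes of low genes, and a mean of 1 RPKM in at least 1 group was required. The 4 group means were estimated in 1 limma model (3.58.1, R 4.3.3) (trend in the prior variance), with Benjamini-Hochberg adjustment over 10799 genes and a threshold of 0.05. The fit was tested on simulated data. Depth came from the steps of low values (95.1% to 95.7% on whole steps). Lengths and positions came from GENCODE vM1 (NCBIM37), and tables and plots were made with Python 3.11.15, pandas 2.3.3 and matplotlib 3.10.9.

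Members, lists and tests were chosen with earlier results of these data known. The named genes are the members called in a genotype comparison or the interaction (the 3 with the smallest p where fewer than 3 were), the highest of each complex, isoform families, the Sdh genes, Arntl and listed regulators. Other members were named after their values were seen. The genotype contrast over both times and the non-overlap counts under other settings were added after seeing the data. The alternatives were other pseudocounts, filters, scalings, transcript rows, lowess correction for GC content and length (span 0.3), a replicate block, an unmoderated model and leaving out each sample. Values of 1 member and of 1 citric acid cycle gene are not reported here.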

Additional observations from a re-analysis of the deposited data

How the results depend on the processing

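The count of members called at CT0, 0, became 1 (Ndufa12) with quantile normalization and 1 with median-ratio scaling, 7 at unadjusted p-values of an unmoderated model, and 0 to 1 when each library was left out, with 1 without KO CT0 replicate 1 (Cox7a2l) and 1 without KO CT0 replicate 2 (Ndufa12). At CT12 the count of 1 became 2 with quantile normalization, 4 with median-ratio scaling, 4 with GC and length trends removed, 6 in the unmoderated model, and 1 to 3 when each library was left out, with 3 without KO CT12 replicate 3. Ndufv3 was called in all 23 alternatives that gave it an adjusted p-value, and with median-ratio scaling Atp5j, Ndufb8 and Sdhd were called lower. The interaction gave 0 except for 3 in the unmoderated model. The change with time in WT, 1 call (lower), became 2 with quantile normalization (1 higher, 1 lower), 2 with median-ratio scaling (both higher, Atp5j and Ndufaf4), 3 with the longest transcript (1 higher, 2 lower), 0 with GC and length trends removed and 7 in the unmoderated model, and was 0 to 3 when each library was left out. With the rows of a symbol summed it was 1, Ndufaf4, higher. It was 3 without KO CT0 replicate 1, 1 without KO CT0 replicate 2 and 0 without any one of the others. In KO the change with time gave 7 in the unmoderated model and 0 otherwise. The genotype difference over both times, 2 calls, became 4 with GC and length trends removed and 11 in the unmoderated model. With GC and length trends removed, 598 higher and 574 lower calls were made over both times among 10455 genes. At CT0 all genes gave 133 higher and 121 lower calls with quantile normalization, and 116 and 109 with median-ratio scaling. For the change with time in WT these were 584 and 587, and 593 and 679. The unmoderated counts use unadjusted p-values, and the share of all genes under that model is not given for any comparison. Members not overlapping at CT12, 9, became 17 with quantile normalization (4 higher, 13 lower), 18 with median-ratio scaling and 18 with GC and length trends removed (1 higher, 17 lower in both), and at CT0 they were 18 to 23. These scalings lowered the median CT12 difference of all genes by 0.074 to 0.081, and the cause was not tested. In the main setting 28.8% of all genes did not overlap at CT12 and 20.6% at CT0. Under the other settings non-overlap was counted for members only, so those counts cannot be read as a result about the members. Over all genes at CT12, 753 higher and 377 lower calls became 518 and 558 with median-ratio scaling, 543 and 501 with quantile normalization and 506 and 543 with GC and length trends removed. The median member difference when each library was left out was 0.016 to 0.145 at CT0 and -0.088 to 0.043 at CT12, positive without WT CT12 replicate 1 (0.043) or KO CT12 replicate 1 (0.013). Over all genes the CT12 medians were then 0.099 and 0.097, so the members still lay below all genes. Among 6498 other values, 133 lost and 68 gained a call, 33 moved without a change of call, and 0 called values reversed.

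Replicate numbers are shared between the groups, but samples with the same number did not deviate together (mean r 0.00825, -0.0665 to 0.139 over 18 pairs of samples, with 6 of 12 libraries correlating best with their own number). The replicate block gave 0 calls at CT0 and 1 at CT12, as without it, changed the WT time call from Ndufa2 to Ndufaf4 (higher), and with GC and length trends removed as well it gave 3 at CT12, and over both times Ndufv3 (higher) and Atp5s (lower) in place of Ndufv3 and Cox7a2l. With 3 samples per group and members that move together within libraries, small shared shifts are at the limit of what these data resolve. Each alternative starts from deposited RPKM, so read assignment between transcripts could not be varied.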
